A study of Cucumis sativus with 12 samples.

Results

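Csa2G346000 is a cucumber gene that the deposited annotation names Expansin-A11, and it is described here across stigma and style of 4 genotypes. It is 1 of 24345 genes in the table and 1 of 39 whose protein name contains expansin. No other gene carries the name Expansin-A11. It was chosen by its identifier with its levels in these libraries already known, so its levels and fold changes below are a description and carry no test.

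RNA was sequenced from stigma and style collected at anthesis, when the flower opens. Mutants of SPATULA (Csspt), of ALCATRAZ (Csalc) and of both genes (Csspt Csalc) were set beside wild type (WT), with 3 biological replicates of each genotype and 12 libraries in all. Both genes encode bHLH transcription factors of the carpel, and the question of the series is what they do for the transmitting tract, the tissue through which pollen tubes grow. The labels give each mutant as homozygous and do not describe the alleles or the parent line.

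Expansins are secreted proteins of the plant cell wall. They loosen the contacts between cellulose microfibrils and the other wall polysaccharides, without cutting the chains, and so let the wall extend as the cell takes up water. Alpha-expansins, to which Expansin-A11 belongs by name, are the class best known from wall extension in growing tissue; some beta-expansins of grasses are pollen proteins that loosen the walls of the stigma and style. The expansin-like A and B proteins share the fold, and their action on walls is not established.

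The libraries held 32155631 to 37986853 counts, and Csa2G346000 took 2440 to 21100 of them. Counting error was thus small beside the spread between replicates in Csalc, Csspt Csalc and WT. In Csspt, where the replicates were closest, it was a larger part of the spread. One library, Csalc replicate 3, was unlike the rest. The correlation of its log2 CPM values with any other library was 0.81 to 0.856, against 0.927 to 0.985 between any pair of the others. The biological coefficient of variation shared by all genotypes was 0.363 with this library and 0.193 without it, and results that rest on it are given both ways. In libraries of whole stigma and style, fewer cells of one type and less RNA per cell cannot be told apart.

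Csa2G346000 was high in WT, lower in both single mutants and lowest in the double mutant. In FPKM, which is normalized to gene length and library size, it measured 146, 139 and 145 in the 3 Csspt libraries and 145, 79.8 and 104 in the 3 Csalc libraries. It measured 78.4, 51.5 and 61.1 FPKM in the Csspt Csalc libraries, against 450, 493 and 436 FPKM in the WT libraries. Every mutant library lay below every WT library, and the highest Csspt library stood 290 FPKM below the lowest WT library.

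The single mutants overlapped each other. In FPKM, Csalc replicate 1 fell inside the Csspt range, while Csalc replicates 2 and 3 lay below all Csspt libraries. The double mutant lay 61.0 FPKM clear of Csspt, but only 1.45 FPKM separated its highest library from the lowest Csalc library.

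Mean levels were 144 ± 3.74 FPKM in Csspt, 110 ± 33.2 FPKM in Csalc, 63.7 ± 13.6 FPKM in Csspt Csalc and 460 ± 29.8 FPKM in WT (SD, n = 3 each). As shares of the WT mean these were 31.3% in Csspt, 23.9% in Csalc and 13.8% in Csspt Csalc. The replicates were closest in Csspt, with a coefficient of variation of 2.60%, and widest in Csalc at 30.2%; it was 21.4% in Csspt Csalc and 6.49% in WT. The ends of the Csalc range were replicates 1 and 2, at 145 and 79.8 FPKM, with replicate 3 between them at 104 FPKM. The Csalc mean was 113 FPKM without replicate 3, or 24.5% of WT, and 91.9 FPKM without replicate 1, or 20.0% of WT.

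Scaled by TMM in place of the authors' normalization, the order of the genotypes was the same. The means were 187 ± 5.74 CPM in Csspt, 136 ± 51.5 CPM in Csalc, 80.0 ± 15.4 CPM in Csspt Csalc and 626 ± 38.7 CPM in WT (SD, n = 3 each). Csalc replicate 3 stayed the middle library of its genotype but came close to replicate 2, at 107 CPM beside 106 CPM. Its TMM factor of 1.24 was above the 0.9377 to 1.039 of the other libraries. Csalc replicate 1, at 196 CPM, stood above the highest Csspt library at 193 CPM.

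**Figure D1:**
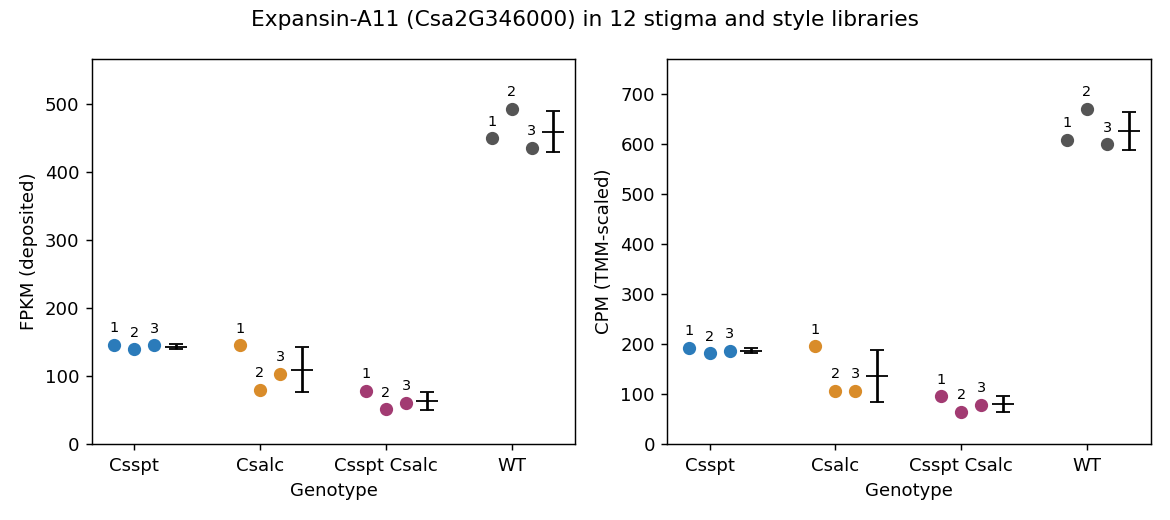
Level of Csa2G346000 (Expansin-A11) in each of the 12 libraries, in FPKM as deposited and in TMM-scaled CPM on linear axes, with genotypes along the horizontal axis in the order Csspt, Csalc, Csspt Csalc and WT. Points are libraries and the bars mark the mean and SD of 3; the 3 WT libraries sit between 436 and 493 FPKM and every mutant library at or below 146 FPKM.

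On the log2 scale of the edgeR fit, the change against WT was -1.74 ± 0.24 in Csspt, -2.20 ± 0.24 in Csalc and -2.97 ± 0.25 in Csspt Csalc (± SE). These are ratios of 3.34-fold, 4.59-fold and 7.82-fold lower than WT. The 3 contrasts share the WT libraries, so they are not independent of each other. Leaving out Csalc replicate 3, they were -1.75 ± 0.20 in Csspt, -2.05 ± 0.24 in Csalc and -2.98 ± 0.21 in Csspt Csalc.

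The authors' deposited table gives log2 fold changes over WT of -1.70 in Csspt, -2.01 in Csalc and -2.91 in the double mutant, each smaller in size than the value from the present fit. For Csalc over Csspt the authors' deposited table gives -0.38. The present fit, taken in the other direction, gave 0.46 ± 0.23 for Csspt over Csalc with 12 libraries and 0.31 ± 0.22 without Csalc replicate 3.

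Relative to the single mutants, the double mutant was lower by -1.23 ± 0.24 on the log2 scale than Csspt, a ratio of 2.34-fold, and by -0.77 ± 0.24 than Csalc, a ratio of 1.70-fold. The difference from Csalc was -0.92 ± 0.22 without Csalc replicate 3 and -0.42 without Csalc replicate 1. The step from either single mutant to the double mutant was thus smaller on the log2 scale than the step from WT to that single mutant.

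Departure from additivity, the log2 difference between the double mutant and the sum of the single mutant changes, was 0.97 ± 0.33 with 12 libraries and 0.83 ± 0.30 without Csalc replicate 3, positive in both. If the single mutants' shares of WT were multiplied, the double mutant would stand at 7.46% of WT, and the measured share was 13.8%. In absolute terms, 316 FPKM of the WT level were missing in Csspt, 350 in Csalc and 396 in Csspt Csalc. By this FPKM difference the gene ranked 10th, 21st and 19th among all 24345 genes in those mutants.

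The gene's place among the expansins moved less than its level. By mean FPKM it was the third expansin in Csspt, the fourth in Csalc, the fifth in Csspt Csalc and the second in WT, where only the gene named putative expansin-B2 (Csa3G117420) was higher. Its place among all genes was 628 in Csspt, 897 in Csalc, 1841 in Csspt Csalc and 113 in WT. It was the third expansin in Csalc too once Csalc replicate 3 was left out.

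Its share of the alpha-expansin transcript shows the shift more plainly. Of the summed FPKM of the 22 alpha-expansin genes, it made up 31.1% to 31.9% in the Csspt libraries, 33.2%, 22.3% and 11.3% in the 3 Csalc libraries and 12.3%, 15.0% and 17.8% in the Csspt Csalc libraries, against 55.6% to 59.3% in the WT libraries. It was more than the other alpha-expansins together in each WT library and less than them in each mutant library. Csalc replicate 3 had the lowest share of all.

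Of the summed FPKM of all 39 expansin genes it made up 9.06% to 12.3% in the Csspt libraries. The mean share was 7.54% ± 4.14 in Csalc, 6.45% ± 1.45 in Csspt Csalc and 21.5% ± 1.64 in WT (SD, n = 3 each), and every mutant library lay below every WT library. The summed FPKM of the other 38 expansins was 1185 ± 244 in Csspt, 1586 ± 867 in Csalc, 961 ± 341 in Csspt Csalc and 1682 ± 170 in WT (SD, n = 3 each). Expansin-B2 was the most abundant of the 38 in each of the 12 libraries. With expansin-B2 also left out, the remaining 37 genes summed to 401 ± 28.5 FPKM in Csspt, 548 ± 361 FPKM in Csalc, 553 ± 205 FPKM in Csspt Csalc and 400.0 ± 6.75 FPKM in WT. No mean sum was above that of WT by more than its own SD. For these 37 genes, however, the lowest Csspt Csalc library, at 411 FPKM, was above the highest WT library, at 407 FPKM. The Csspt libraries ran from 381 to 434 FPKM and the Csalc libraries from 339 to 965 FPKM. The sums were not tested.

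**Figure D2:**
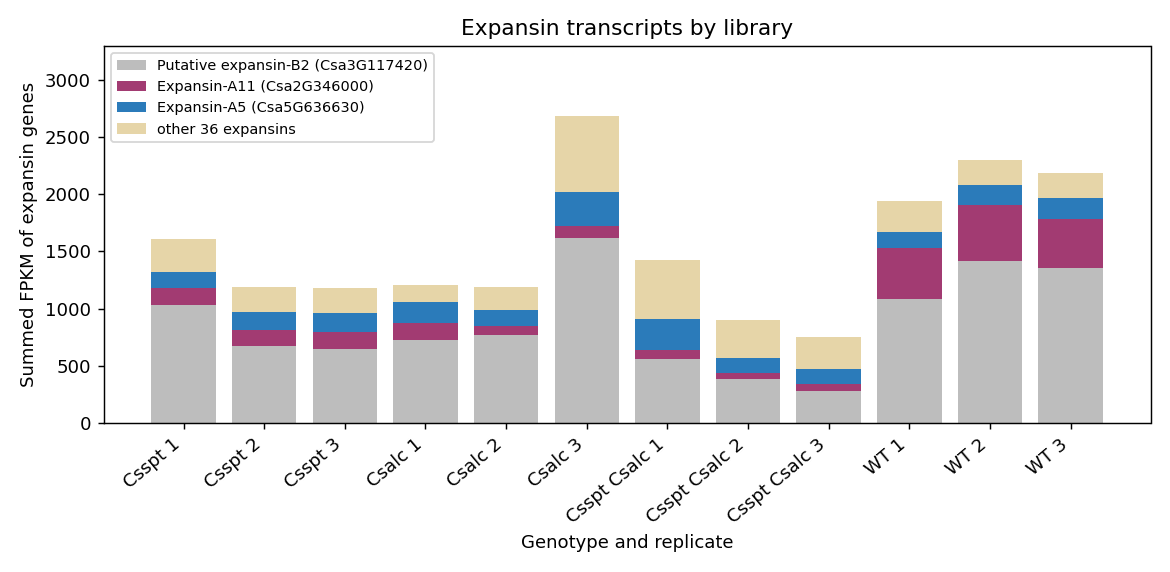
Summed FPKM of the expansin genes in each of the 12 libraries (vertical axis, linear), stacked as expansin-B2, Expansin-A11, Expansin-A5 and the other 36 expansins, with the genotypes ordered Csspt, Csalc, Csspt Csalc and WT. The band of Expansin-A11 is smaller in every mutant library than in any WT library, and the tall bar of Csalc replicate 3 holds 1621 FPKM of expansin-B2.

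Of the 39 expansin genes, 21 passed the filter on low counts: 16 of 22 alpha-expansins, 2 of 3 beta-expansins, 2 of 12 expansin-like A genes and 1 of 2 expansin-like B genes. The 18 that did not pass included 10 listed at 0 in all 12 libraries, and none of the other 8 reached more than 1.57 FPKM in any library. Leaving Csa2G346000 aside, 20 expansins could be tested in each contrast with the quasi-likelihood test of edgeR, adjusted by Benjamini-Hochberg over all tested genes at 0.05. In the double mutant against WT, 3 of these 20 rose and 2 fell, where 7.18% of all 18850 tested genes were called, 3.77% up and 3.41% down. With Csalc replicate 3 left out, 6 rose and 3 fell, beside 36.1% of all tested genes (19.2% up and 16.8% down).

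Expansin-B2 (Csa3G117420), the most abundant expansin of this tissue, fell in the double mutant. It measured 1034, 672 and 648 FPKM in Csspt, 725, 767 and 1621 FPKM in Csalc, 556, 385 and 281 FPKM in Csspt Csalc and 1081, 1413 and 1352 FPKM in WT. Its log2 fold change in the double mutant was -1.77 ± 0.32 (edgeR, Benjamini-Hochberg adjusted p = 0.0104), and it was called under all 19 settings tried. In the single mutants it did not pass, at -0.77 ± 0.31 in Csspt and -0.52 ± 0.31 in Csalc, where replicate 3 was higher than any WT library. Without that library the Csalc value was -0.81 ± 0.27.

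Expansin-A15 (Csa1G033320) had the genotype order of Csa2G346000 at a far lower level. It measured 10.9, 10.3 and 10.1 FPKM in Csspt, 8.48, 5.25 and 0.984 FPKM in Csalc, 4.58, 3.95 and 3.15 FPKM in Csspt Csalc and 20.1, 27.0 and 19.9 FPKM in WT. All mutant libraries lay below all WT libraries. The fall in the double mutant was -2.63 ± 0.61 on the log2 scale (edgeR, Benjamini-Hochberg adjusted p = 0.0296), called under 11 of 19 settings. Without Csalc replicate 3 it passed in all 3 mutants by the same test, at -1.17 ± 0.20 in Csspt (adjusted p = 0.0127), -1.73 ± 0.23 in Csalc (adjusted p = 0.00395) and -2.63 ± 0.21 in Csspt Csalc (adjusted p = 2.43e-05).

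The 3 expansins that rose in the double mutant were far below Expansin-A11 in WT. Expansin-like A2 (Csa7G019900) measured 56.9, 36.7 and 41.8 FPKM in Csspt, 25.5, 28.6 and 134 FPKM in Csalc, 138, 104 and 72.4 FPKM in Csspt Csalc and 25.8, 15.1 and 20.5 FPKM in WT. It rose by 2.23 ± 0.51 on the log2 scale in the double mutant (edgeR, Benjamini-Hochberg adjusted p = 0.0275). In each Csspt Csalc library it stood above Expansin-A11, the reverse of their order in each WT library. Its identifier stands in a run of expansin-like A genes on the same chromosome, and how reads were shared among them was not measured, so its level is uncertain.

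Expansin-B3 (Csa7G047420), a beta-expansin, measured 14.6, 4.64 and 12.7 FPKM in Csspt Csalc against 1.16, 1.12 and 0.531 FPKM in WT, a rise of 3.37 ± 0.68 on the log2 scale (edgeR, Benjamini-Hochberg adjusted p = 0.0167). One of the genes named Expansin-A4 (Csa5G182120) measured 3.83, 2.22 and 2.35 FPKM in Csspt Csalc against 0.478, 0.979 and 1.01 FPKM in WT, a rise of 1.64 ± 0.36 (adjusted p = 0.0241 by the same test). For both genes every Csspt Csalc library was above every WT library. With 12 libraries, the calls of all 5 genes but expansin-B2 were lost when any 1 WT library or Csspt Csalc replicate 1 was left out.

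**Figure D3:**
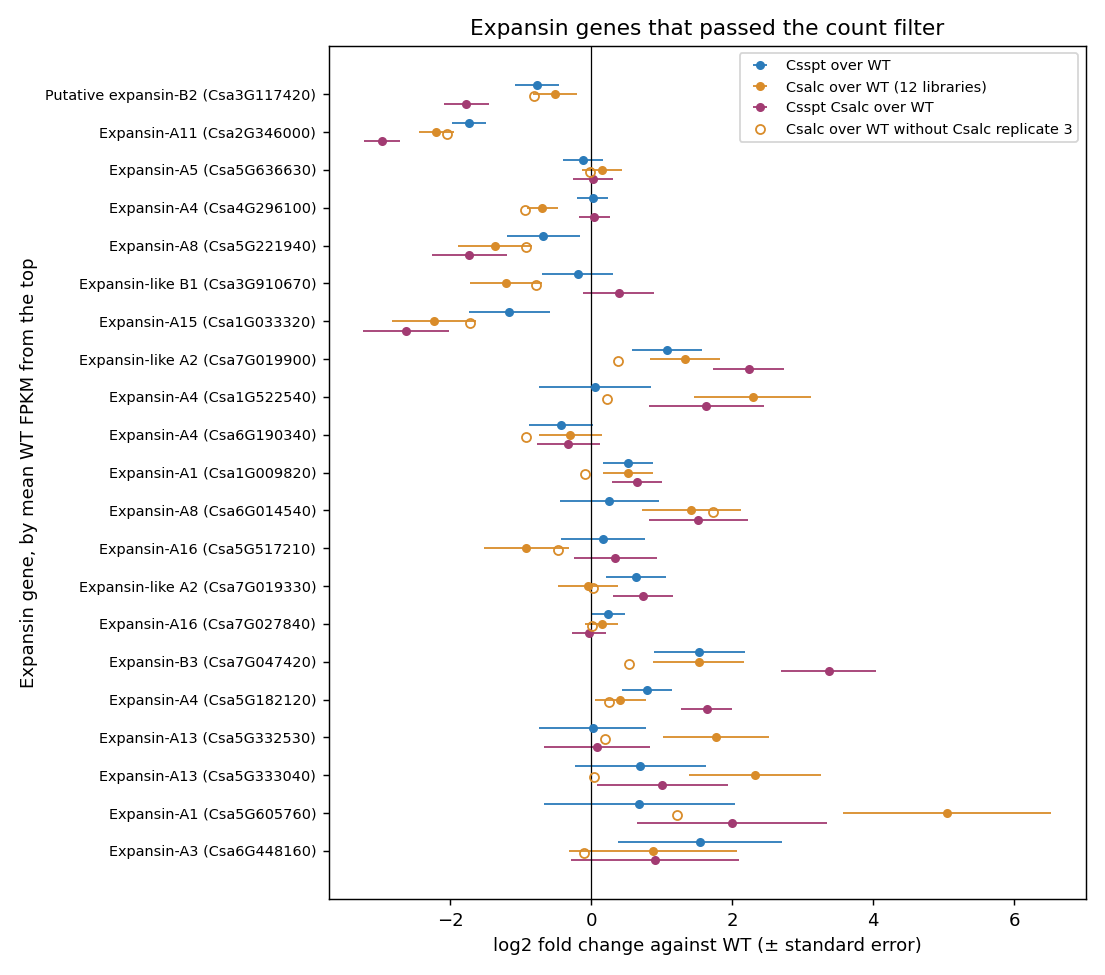
Log2 fold change against WT (horizontal axis, ± SE) of Csa2G346000 and the 20 other tested expansins in Csspt, Csalc and Csspt Csalc, from the edgeR fit of 12 libraries, with genes ordered by mean WT FPKM and open circles for Csalc without replicate 3. Csa2G346000 lies at -1.74, -2.20 and -2.97 in the 3 mutants; the other expansins spread to both sides of 0 in each.

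The single mutants gave fewer calls. Here and below, the shares of all genes are for edgeR calls at an adjusted p of 0.05. No such share is given for counts at unadjusted p or by DESeq2, so those counts are not a result about a gene list. In Csspt against WT, edgeR called 0 of the 20 other expansins (2 at unadjusted p under 0.05, and 0 by DESeq2), where 0.0584% of all genes were called (0.00531% up and 0.0531% down). In the fit without Csalc replicate 3, expansin-like A2 rose by 1.07 ± 0.25 (adjusted p = 0.0388 by edgeR) and Expansin-A15 fell, beside 4.72% of all genes (1.99% up and 2.73% down). In Csalc against WT, edgeR called 0 of 20 (10 at unadjusted p under 0.05, and 2 by DESeq2), where 0.785% of all genes were called (0.159% up and 0.626% down). There, the fit without Csalc replicate 3 called Expansin-A15 and an Expansin-A4 gene (Csa4G296100), both lower in Csalc, beside 4.36% of all genes (1.79% up and 2.57% down).

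The median log2 fold change of the 20 other expansins was 0.20 in Csspt, 0.29 in Csalc and 0.52 in Csspt Csalc, beside 0.02, 0.06 and 0.03 over all tested genes. The Csalc median was -0.01 without Csalc replicate 3. Csa2G346000 lay below this median in each mutant.

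Among the most abundant WT expansins, Expansin-A5 and 1 Expansin-A4 gene kept closer to their WT level than Csa2G346000. Expansin-B2 and Expansin-A8 (Csa5G221940) had log2 fold changes of -1.77 and -1.73 in the double mutant. Expansin-A5 (Csa5G636630) measured 144, 158 and 166 FPKM in Csspt, 184, 142 and 294 FPKM in Csalc, 278, 132 and 128 FPKM in Csspt Csalc and 136, 173 and 178 FPKM in WT, and its groups overlapped throughout. It was below Expansin-A11 in every WT library and above it in every Csspt Csalc library. The Expansin-A4 gene Csa4G296100 measured 61.4, 56.8 and 62.4 FPKM in Csspt, 29.5, 30.8 and 61.2 FPKM in Csalc, 87.8, 52.4 and 50.4 FPKM in Csspt Csalc and 56.7, 56.8 and 57.2 FPKM in WT. Its change in Csalc was -0.69 ± 0.22 with 12 libraries, which did not pass, and -0.94 ± 0.19 without Csalc replicate 3 (edgeR, Benjamini-Hochberg adjusted p = 0.0217).

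Expansin-A8 (Csa5G221940), the expansin closest to Csa2G346000 by root mean square difference over 12 libraries, measured 35.1, 34.0 and 21.0 FPKM in Csspt, 22.9, 26.5 and 6.94 FPKM in Csalc, 22.1, 8.25 and 14.9 FPKM in Csspt Csalc and 56.6, 36.2 and 45.9 FPKM in WT. Every mutant library lay below every WT library. Its change in the double mutant was -1.73 ± 0.53 with 12 libraries (edgeR, Benjamini-Hochberg adjusted p = 0.0769) and -1.74 ± 0.32 without Csalc replicate 3 (adjusted p = 0.00235 by the same test).

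Between the double and the single mutants, edgeR called 0 of the 20 other expansins against Csspt (5 at unadjusted p under 0.05, and 1 by DESeq2), where 0.361% of all genes were called (0.117% up and 0.244% down). Against Csalc it called 0 of 20 (7 at unadjusted p under 0.05, and 2 by DESeq2), where 0.711% were called (0.462% up and 0.249% down). When Csalc replicate 3 was left out, 3 rose and 3 fell against Csspt, beside 14.4% of all genes (7.82% up and 6.59% down), and 5 rose and 2 fell against Csalc, beside 11.2% (6.24% up and 4.94% down). Expansin-B2 and Expansin-A15 were among those that fell in both contrasts, and expansin-like A2 and expansin-B3 among those that rose in both. For departure from additivity, edgeR called 0 of the 20 with 12 libraries (2 at unadjusted p under 0.05, lowest adjusted p = 0.724) and 0 without Csalc replicate 3 (3 at unadjusted p under 0.05, lowest adjusted p = 0.163). No share of all tested genes is given for that departure, so its counts are not a result about expansins as a family.

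Likeness to the profile of Csa2G346000 was measured as the root mean square difference between log2 CPM profiles over the 12 libraries, each centred on its own mean. The median over the other 18849 tested genes was 1.21, and 32 genes were under 0.5. The 8 closest genes with an informative protein name lay between 0.21 and 0.37. None of the 8 was an expansin: Expansin-A8 came at position 210 (0.72), expansin-B2 at 255 (0.74) and Expansin-A15 at 264 (0.75). Over the libraries other than Csalc replicate 3, Expansin-A15 moved to 0.27 and was among the 8 closest named genes.

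The closest gene was a cytochrome P450 named 86A22 (Csa5G153010), at 0.21. In petunia the enzyme of that name adds a hydroxyl group to the end of fatty acyl chains and is needed for the lipids of the stigma surface. It measured 129, 97.9 and 131 FPKM in Csspt, 126, 83.1 and 88.4 FPKM in Csalc, 66.4, 40.7 and 45.9 FPKM in Csspt Csalc and 317, 280 and 329 FPKM in WT. Its libraries followed the same order of genotypes, with Csalc replicate 1 inside the Csspt range, and it was the closest gene under all 13 settings tried.

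The next were a SNF1-related kinase regulatory subunit named PV42a (Csa4G006180, 0.32), a pentatricopeptide repeat protein (Csa2G348160, 0.33), epsin-3 (Csa3G134940, 0.33) and a further pentatricopeptide repeat protein (Csa3G810560, 0.34). The ACT domain protein ACR4 (Csa6G093100, 0.35), a UDP-glycosyltransferase (Csa6G418410, 0.35) and phosphoenolpyruvate carboxykinase (Csa6G497180, 0.37) completed the 8. Carboxykinase, an enzyme of gluconeogenesis, was the second most abundant, at mean levels of 60.3 ± 21.2 FPKM in Csspt, 41.1 ± 10.9 FPKM in Csalc, 24.6 ± 9.79 FPKM in Csspt Csalc and 183 ± 20.0 FPKM in WT (SD, n = 3 each). PV42a was the lowest, at 0.771 ± 0.201, 0.448 ± 0.0348 and 0.386 ± 0.153 FPKM in the same mutants and 2.05 ± 0.0703 FPKM in WT. The points of these profiles share their libraries, and likeness in 12 libraries of 4 genotypes is a description of the pattern.

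**Figure D4:**
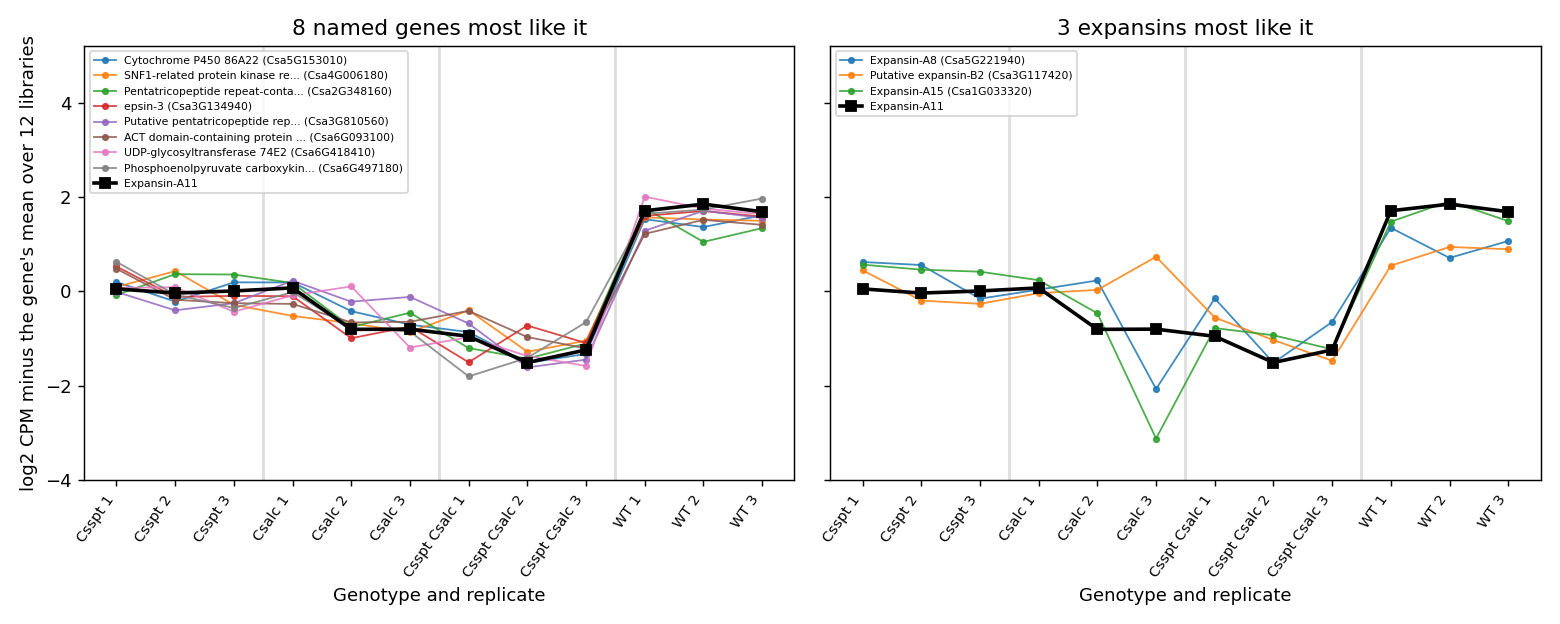
Centred log2 CPM (vertical axis) of Csa2G346000, the 8 named genes and the 3 expansins closest to it, across the 12 libraries ordered Csspt, Csalc, Csspt Csalc and WT. The 8 genes lie within 0.37 of Csa2G346000 by root mean square difference, while the 3 expansins lie at 0.72 to 0.75.

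Other wall genes were counted in the same fit, where 0.0584% of all tested genes were called in Csspt, 0.785% in Csalc and 7.18% in Csspt Csalc. Counts at unadjusted p again have no share of all genes beside them. Of 21 tested xyloglucan enzymes, which cut and rejoin or build the xyloglucan that ties microfibrils together, 0 were called in Csspt (2 at unadjusted p under 0.05 by edgeR), 0 in Csalc (6 at unadjusted p under 0.05), and 2 rose and 3 fell in Csspt Csalc. XTH10 (Csa4G000010) rose by 3.75 ± 0.67 and XTH2 (Csa6G396660) by 2.72 ± 0.56 on the log2 scale in the double mutant, both with mean levels under 1 FPKM in WT. Of 13 endoglucanases, 1 rose in the double mutant (endoglucanase 24, Csa2G251510, by 3.60 ± 0.61) and 0 were called in the single mutants, with 1 in Csspt and 7 in Csalc at unadjusted p under 0.05. Of 8 cellulose synthases, 2 rose and 1 fell in the double mutant and 0 were called in the single mutants, with 2 in Csspt and 4 in Csalc at unadjusted p under 0.05. Those that rose were the subunits 7 (Csa2G070320, 3.16 ± 0.68) and 8 (Csa1G470270, 2.68 ± 0.67), known from secondary walls. Their levels were low, at means of 0.122 and 0.176 FPKM in WT and 1.22 and 1.25 FPKM in Csspt Csalc. Endoglucanase 24 averaged 0.414 FPKM in WT and 5.61 FPKM in Csspt Csalc.

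The genes listed as pectin enzymes gave calls in every mutant. Such enzymes trim or cut the pectin of the wall, but the name pattern of the list also matches pectinesterase inhibitors. Of 87 tested, 0 rose and 2 fell in Csspt, 1 rose and 3 fell in Csalc, and 5 rose and 5 fell in Csspt Csalc. Over all tested genes, 0.00531% rose and 0.0531% fell in Csspt, 0.159% and 0.626% in Csalc, and 3.77% and 3.41% in Csspt Csalc. Rhamnogalacturonate lyase B (Csa3G892760) fell in all 3, with means of 27.7 ± 10.1 FPKM in Csspt, 23.8 ± 3.94 FPKM in Csalc, 7.39 ± 2.16 FPKM in Csspt Csalc and 101 ± 3.05 FPKM in WT (SD, n = 3 each). Its log2 fold changes of -1.92 ± 0.25, -2.24 ± 0.26 and -3.89 ± 0.27 stand beside -1.74, -2.20 and -2.97 for Csa2G346000, in the same order of mutants. Pectinesterase 67 (Csa3G166360) fell by -1.45 ± 0.13 in Csspt, and pectate lyase 5 (Csa2G350210) fell by -5.06 ± 0.66 in Csspt Csalc. The gene named pectinesterase/pectinesterase inhibitor 51 (Csa2G302140) rose by 1.93 ± 0.36 in Csalc. Only up to 2 called genes per mutant are named, so naming a gene under 1 mutant does not make its change particular to it. In Csspt, Csalc, Csspt Csalc and WT, pectinesterase 67 averaged 16.6, 23.8, 8.30 and 43.4 FPKM. In the same order, pectate lyase 5 averaged 5.03, 5.53, 1.02 and 31.9 FPKM, and pectinesterase/pectinesterase inhibitor 51 0.595, 3.78, 1.27 and 0.851 FPKM.

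Auxin promotes wall loosening in many growing tissues, so auxin response and transport genes were counted too. Of 87 tested, 0 were called in Csspt (18 at unadjusted p under 0.05 by edgeR), 0 rose and 4 fell in Csalc, and 2 rose and 14 fell in Csspt Csalc, beside the same shares of all tested genes. The count at unadjusted p has no share of all genes beside it. The carrier PIN2 (Csa1G427480) fell by -2.68 ± 0.51 in Csalc and by -4.74 ± 0.57 in Csspt Csalc. In Csspt PIN2 was not called, at a mean of 2.23 ± 0.439 FPKM against 9.49 ± 1.52 FPKM in WT (SD, n = 3 each). IAA16 (Csa1G397130) fell by -1.90 ± 0.32 in Csalc. All genes named from these lists passed the same edgeR test at an adjusted p of 0.05.

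These counts moved when Csalc replicate 3 was left out. In Csspt, 0 xyloglucan enzymes of 22 rose and 2 fell, 0 pectin enzymes of 88 rose and 8 fell, and 3 auxin genes of 90 rose and 8 fell, beside 1.99% of all tested genes up and 2.73% down. In Csalc, 0 xyloglucan enzymes rose and 1 fell, 1 pectin enzyme rose and 8 fell, and 0 auxin genes rose and 12 fell, beside 1.79% up and 2.57% down. In Csspt Csalc, 3 xyloglucan enzymes rose and 5 fell, 23 pectin enzymes rose and 18 fell, and 14 auxin genes rose and 30 fell, beside 19.2% up and 16.8% down. Of the 13 endoglucanases, 1 fell in Csspt, 1 rose in Csalc, and 5 rose and 1 fell in Csspt Csalc. Of the 8 cellulose synthases, 1 fell in each single mutant, and 4 rose and 2 fell in Csspt Csalc.

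Markers of the tissue and of other cell types were read beside these values. Among 19 carpel, stigma and style genes, 3 were at 0 in all libraries, and no gene of the table was named CRABS CLAW. Their summed level was 192 to 196 FPKM in Csspt, 164 to 265 FPKM in Csalc, 180 to 200 FPKM in Csspt Csalc and 212 to 215 FPKM in WT; without replicate 3 the Csalc range was 164 to 177 FPKM. Of 2 genes named AGAMOUS, the carpel identity factor, Csa6G520410 was at 50.8 FPKM or more in every library. The other, Csa1G467100, measured 3.92, 3.49 and 3.88 FPKM in Csspt, 3.05, 4.33 and 7.52 FPKM in Csalc, 12.9, 10.8 and 15.6 FPKM in Csspt Csalc and 3.31, 2.21 and 2.68 FPKM in WT, so that every Csspt Csalc library was above every WT library.

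By edgeR at an adjusted p of 0.05, 0 of the 15 tested carpel, stigma and style genes rose and 1 fell in Csspt, 0 rose and 1 fell in Csalc, and 1 rose and 3 fell in Csspt Csalc, the 1 that rose being Csa1G467100. Over all tested genes, 0.0584% were called in Csspt, 0.785% in Csalc and 7.18% in Csspt Csalc (3.77% up and 3.41% down). Without Csalc replicate 3, 0 of the 15 rose and 1 fell in Csspt, 0 rose and 2 fell in Csalc, and 1 rose and 6 fell in Csspt Csalc. Beside these, 4.72%, 4.36% and 36.1% of all tested genes were called in the same mutants, in Csspt Csalc 19.2% up and 16.8% down. The gene that fell in all 3 mutants was 1 of 4 named WIP2 (Csa3G810580), a zinc finger protein needed for the transmitting tract in Arabidopsis, measured 9.47, 10.3 and 9.09 FPKM in Csspt, 9.27, 10.2 and 20.4 FPKM in Csalc, 6.74, 4.66 and 3.84 FPKM in Csspt Csalc and 34.2, 34.3 and 33.9 FPKM in WT. The other 3 were not called in any mutant: Csa4G290830 was at 0 throughout, Csa7G428260 measured 10.7, 12.1 and 12.1 FPKM in Csspt against 9.37, 9.60 and 8.95 FPKM in WT, and Csa4G571220 measured 2.07, 1.76 and 1.68 FPKM in Csspt Csalc against 1.60, 1.37 and 1.16 FPKM in WT. A stigma-specific STIG1-like gene (Csa1G059710) measured 3.81, 0.723 and 1.98 FPKM in Csspt, 3.42, 0.677 and 1.36 FPKM in Csalc, 0.157, 0.793 and 0.356 FPKM in Csspt Csalc and 9.66, 7.96 and 9.58 FPKM in WT. For Csa3G810580 and Csa1G059710 every mutant library lay below every WT library.

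Of 19 pollen genes, 14 stayed under 1 FPKM in every library, 5 of these at 0. The sum of the 19 was 23.3 to 30.3 FPKM in Csspt, 28.5 to 123 FPKM in Csalc, 24.3 to 31.7 FPKM in Csspt Csalc and 21.8 to 25.6 FPKM in WT, and a single leucine-rich repeat extensin-like gene (Csa6G485140) gave 116 FPKM of the highest sum. The 18 green tissue genes summed to 1643 to 2149 FPKM in Csspt, 242 to 2271 FPKM in Csalc, 2785 to 3389 FPKM in Csspt Csalc and 1443 to 1667 FPKM in WT. The 19 phloem genes summed to 289 to 309 FPKM in Csspt, 248 to 315 FPKM in Csalc, 293 to 378 FPKM in Csspt Csalc and 238 to 271 FPKM in WT. In Csspt Csalc against WT, edgeR called 0 of 8 tested pollen genes, 1 of 18 green tissue genes (up) and 4 of 15 phloem genes (up). Without Csalc replicate 3, 14 of the 18 green tissue genes rose and 1 fell in Csspt Csalc. Of 16 phloem genes 9 rose and 1 fell there, and of 8 pollen genes 1 rose and 1 fell. These stand beside the shares of all tested genes given above. The lowest green tissue sum and the highest pollen sum both belonged to Csalc replicate 3; without it the Csalc ranges were 2127 to 2271 FPKM for green tissue, 28.5 to 30.2 FPKM for pollen and 248 to 274 FPKM for phloem. The green tissue and phloem sums were above WT in every Csspt Csalc library and the phloem sum in every Csspt library, while the carpel sum was below WT in every Csspt and Csspt Csalc library. The carpel genes did not move together: in all these libraries AGAMOUS Csa6G520410 was above WT and WIP2 Csa3G810580 below it. The carpel list also holds genes named SPATULA, the name of a mutated gene. Of these, Csa2G356640 measured 20.9, 20.0 and 18.9 FPKM in Csspt and 11.8, 12.2 and 5.87 FPKM in Csalc. It measured 13.2, 12.1 and 8.44 FPKM in Csspt Csalc against 21.0, 20.1 and 19.6 FPKM in WT. The part of tissue makeup in the level of Csa2G346000 was not tested.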

How the data were processed

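The submitters' processing notes name HISAT2, HISAT and DESeq2. Which versions, which genome build and which annotation were used is not given in the sources used here. A single table deposited by the authors holds whole-number read counts and FPKM values for 24345 genes, and per the file headers FPKM is scaled for the length of a gene and the size of its library. The log2 fold changes and FDR values deposited by the authors are quoted only as theirs. DM in a header was taken to mean double mutant. No identifier matched the RefSeq table, so names are those deposited and no coordinates are given.

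Counts were fitted in R 4.3.3 with edgeR 4.0.16, using filterByExpr with a minimum count of 10, TMM scaling, and glmQLFit and glmQLFTest on all genes and all 4 genotypes in 1 fit, with Benjamini-Hochberg adjustment per contrast at 0.05. The SE of a fold change is that change over the square root of its F statistic. CPM for profiles used a prior count of 2. Alternatives used DESeq2 1.42.0, and limma 3.58.1 on log2(FPKM + 1) or log2(FPKM + 0.1). No replicates were merged, since even the closest pair had a chi-square of 13.7 per degree of freedom.

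The gene, the gene lists and the marker lists were chosen with earlier results of these data known. Genes named besides Csa2G346000 are the expansins called in any contrast, the 5 expansins highest in WT, the 3 expansins and 8 other named genes with the closest profiles, up to 2 called genes per other list and mutant, and markers. Lists are patterns on protein names. Markers were picked from their list after their values were seen. SPATULA is the name of 2 genes and no gene is named ALCATRAZ, so the mutated genes are not assigned and the genotype labels are not checked by their transcripts.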

Additional observations from a re-analysis of the deposited data

How the results depend on the processing

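The fold changes of Csa2G346000 kept their direction under every alternative run. Against WT, leaving out 1 library at a time gave -1.78 to -1.70 in Csspt, -2.56 to -2.05 in Csalc and -3.13 to -2.85 in Csspt Csalc; against Csspt the double mutant ranged from -1.38 to -1.10 and against Csalc from -0.927 to -0.421. For Csspt against WT, limma on log2(FPKM + 1) gave -1.67. The count of other expansins called moved more. Leaving out 1 library at a time it was 0 to 2 in Csspt and in Csalc against WT, 1 to 9 in Csspt Csalc against WT, 0 to 6 against Csspt and 0 to 7 against Csalc. The 5 calls of the double mutant against WT became 1 without Csspt Csalc replicate 1 or any WT library, 3 without Csspt Csalc replicate 2 or 3, and 9 without Csalc replicate 3. A fit of the compared groups alone called 2 in Csspt and 10 in Csspt Csalc against WT, and 3 in Csspt Csalc against Csspt. DESeq2 called 2 in Csalc against WT, 1 in Csspt Csalc against Csspt and 2 against Csalc. For these alternatives, apart from the fit without Csalc replicate 3, the share of all genes called is not given here. Their counts show how the calls move with the setting and are not a result about expansins as a family. The rank among expansins was 3 in Csalc by CPM; leaving out 1 library, it was 3 in Csspt, 3 to 4 in Csalc, 4 to 6 in Csspt Csalc and 2 in WT. Of the 8 closest named genes, 3 were kept with Pearson's r as the measure and 3 to 8 with 1 library left out. Whether replicate numbers pair the libraries is not settled by their values. Deviations of same-numbered libraries from their genotype means had correlations of -0.252 to 0.208, over 0.1 in 2 of 18 pairs. Each mean was of 3 libraries, with Csalc replicate 3 in 1 of them, so a weak pairing could be missed. A fit with the replicate block gave -1.75, -2.25 and -2.99 for the 3 mutants against WT and 5 called expansins in the double mutant. With 3 libraries per genotype, an expansin that did not pass is not shown to be unchanged.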

Other observations

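High values of several expansins sat in single libraries; these genes and counts were chosen after their values were seen. Csalc replicate 3 was the highest of its genotype for 14 of the 20 other tested expansins, where 46.5% of all tested genes were highest in that library. The Expansin-A4 gene Csa1G522540 measured 22.8, 23.7 and 321 FPKM in Csalc against 23.6, 17.8 and 17.3 FPKM in WT, and the Expansin-A1 gene Csa5G605760 measured 0.895, 1.12 and 54.3 FPKM in Csalc against 0.555, 0.504 and 0.204 FPKM in WT. Csa2G346000 was not high in that library. Csspt Csalc replicate 1 was the highest of its genotype for 16 of the 20, where 38.6% of all tested genes were highest, and Csspt replicate 1 for 13 of the 20, where 39.0% were. Csa2G346000 was also highest in both of these libraries.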
